A study of Homo sapiens with 6 samples.

Results

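The miR-26 family in these libraries comprised 5 of the 2575 mature miRNA entries in the deposited tables: hsa-miR-26a-5p, hsa-miR-26a-1-3p, hsa-miR-26a-2-3p, hsa-miR-26b-5p and hsa-miR-26b-3p, written without the species prefix from here on. They were chosen by name, as every arm of miR-26a and miR-26b, and not by their counts, though earlier results of these data were known. The libraries were made from exosomes, small vesicles released by cells, collected from medium conditioned by HCT116, an established human colorectal cancer cell line, at passage 16 to 19. The 3 titled ETBF libraries came from cells kept together with ETBF, enterotoxigenic Bacteroides fragilis, for 6 h at a multiplicity of infection of 500; this gut anaerobe secretes a toxin. The 3 titled untreated libraries came from cells given the bacterial medium alone. In 6 of 6 libraries the file name gives the group opposite to the sample's title. Groups follow the titles here, and every direction below would turn over, with sizes, errors and p-values unchanged, were the file names the correct ones. Separate cultures are not stated for the replicates, so the spread behind the p-values may be technical.

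miR-26a and miR-26b are conserved miRNAs expressed in most tissues. Each is cut from a hairpin in an intron of a CTDSP gene, a family of small phosphatases that act on RNA polymerase II and on the retinoblastoma protein. The 5p arm is the guide strand loaded into Argonaute, and its bases 2 to 8, the seed, choose the messenger RNAs it represses. A well-studied target is EZH2, the histone methyltransferase of the Polycomb repressive complex, and MYC is known to repress the miR-26 genes.

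The guide strands and their seed relatives are shown first because the seed defines the family and the remaining bases are what separates miR-26a-5p from miR-26b-5p in a count table. Sequences are RefSeq's, on build GRCh38.p14, written 5′ to 3′ with bases 2 to 8 in capitals, and 5 of 5 family entries matched that table.
miR-26a-5p: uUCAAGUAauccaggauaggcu
miR-26b-5p: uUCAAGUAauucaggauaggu
miR-1297: uUCAAGUAauucaggug
miR-4465: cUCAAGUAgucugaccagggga
These 4 mature names share the seed in that table. miR-26a-5p and miR-26b-5p are identical at 19 of the 21 bases compared and differ by C11U and C21U, with miR-26a-5p as the first base and positions counted from 1 at the 5′ end. miR-26a-5p also runs 1 base longer, at 22 nt. Both differences lie outside the seed.

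The hairpins show why the 5p arm of miR-26a cannot be assigned to a gene while its 3p arms can. Mature arms are in capitals.
MIR26A1: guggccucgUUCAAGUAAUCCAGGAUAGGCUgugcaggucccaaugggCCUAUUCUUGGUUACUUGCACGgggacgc
MIR26A2: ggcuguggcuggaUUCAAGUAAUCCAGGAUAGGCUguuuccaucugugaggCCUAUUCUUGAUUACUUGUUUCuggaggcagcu
MIR26B: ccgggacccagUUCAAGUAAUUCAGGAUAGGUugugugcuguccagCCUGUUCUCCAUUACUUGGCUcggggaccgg
MIR26A1 lies at chr3:37969404-37969480 on the plus strand, MIR26A2 at chr12:57824609-57824692 on the minus strand and MIR26B at chr2:218402646-218402722 on the plus strand of GRCh38.p14. In GENCODE release 29, MIR26A1 lies in intron 5 of CTDSPL, MIR26A2 in intron 5 of CTDSP2 and MIR26B in intron 4 of CTDSP1, each on the host's strand and in the principal transcript. The miR-26a-5p sequence is the same at its 2 loci. The 3p arms of those loci differ by 5 substitutions (G11A, C19U, A20U, C21U and G22C, with miR-26a-1-3p as the first base).

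Libraries held 200207 to 417321 counts, and 195 of the 2575 entries had enough counts to test. The fixed epithelial markers were present, with 6 of 7 tested and a summed share of 3.15% to 3.53% of the titled untreated libraries and 2.15% to 3.69% of the titled ETBF libraries. Of 13 markers of blood, muscle, liver, stromal, endothelial and neuronal cells, 10 were tested, and their sum took 2.98% to 3.29% and 2.21% to 3.27%. Their part in the values below was not tested. By edgeR's quasi-likelihood test 0 of those 10 and 0 of the 6 epithelial markers differed between the titled groups, and 2 of each had an unadjusted p under 0.05, where over all tested entries 14.4% differed and 33.8% had such a p. limma-voom also called 0 of both, and DESeq2 0 of the 10 and 1 of the 6, miR-192-5p. 3 entries whose sequences overlap structural RNAs (miR-7641, miR-6087 and miR-1246) took 16.1% to 28.3% of the titled untreated libraries and 0.531% to 0.927% of the titled ETBF libraries, which bears on every share of a library below.

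miR-26a-5p was among the most abundant miRNAs of these exosomes. It held 5460, 8712 and 7366 counts in titled untreated replicates 1, 2 and 3, and 8250, 5529 and 9478 in titled ETBF replicates 1, 2 and 3. As a share of all counts this was 2.73% (95% exact binomial interval 2.66% to 2.80%), 2.36% (2.31% to 2.41%) and 2.51% (2.45% to 2.57%) in the titled untreated libraries. Among titled ETBF libraries the share was 3.29% (3.22% to 3.37%), 2.49% (2.43% to 2.56%) and 2.27% (2.23% to 2.32%). The highest and the lowest share were both in titled ETBF libraries, so the groups overlapped. Intervals cover counting error only and treat each read as independent. No molecular identifiers are described for these reads, so the intervals may be too narrow even for that. By count, miR-26a-5p ranked between the 6th and the 9th of all entries in every library.

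miR-26b-5p was present at a lower level. Titled untreated replicates 1, 2 and 3 held 415, 651 and 576 of its counts and titled ETBF replicates 545, 386 and 558, and it ranked between 42 and 45 by count. Its share was 0.207% (95% exact binomial interval 0.188% to 0.228%), 0.176% (0.163% to 0.191%) and 0.196% (0.181% to 0.213%) in the titled untreated libraries. With ETBF in the title it was 0.218% (0.200% to 0.237%), 0.174% (0.157% to 0.192%) and 0.134% (0.123% to 0.145%). As for miR-26a-5p, titled ETBF replicate 1 had the highest share and titled ETBF replicate 3 the lowest. miR-148a-3p, the most abundant entry, stood at 33.1% of the counts of titled ETBF replicate 1 and 51.1% of those of titled ETBF replicate 3.

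All arms together made up 2.73% ± 0.199 of the counts in titled untreated and 2.86% ± 0.579 in titled ETBF samples (SD, n = 3, exact permutation test, two-sided, p = 0.9, where 0.1 is the smallest p this design allows). For miR-26a-5p alone the means were 2.53% ± 0.184 and 2.69% ± 0.539 (SD, n = 3, exact permutation p = 0.9), and for miR-26b-5p 0.193% ± 0.0156 and 0.175% ± 0.0420 (SD, n = 3, exact permutation p = 0.6). Adjusted over these 3 shares and the ratio given below, the p-values of the shares were each 0.9. The sizes and directions of the shares depended on what else was counted. With the 3 structural RNA entries left out of the totals, the miR-26a-5p share was 3.23% ± 0.511 with the untreated title and 2.70% ± 0.549 with the ETBF title (SD, n = 3, exact permutation p = 0.3). With miR-148a-3p left out instead, it was 3.76% ± 0.0612 and 4.64% ± 0.296, and the groups no longer overlapped (SD, n = 3, exact permutation p = 0.1). The family share then went from 4.05% ± 0.0648 to 4.94% ± 0.308 (SD, n = 3, exact permutation p = 0.1). The structural RNA entries stayed in those totals. Of all counts they were on average 21.0% with the untreated title and 0.691% with the ETBF title. They therefore enlarged the totals mainly in the titled untreated libraries, which lowers the shares there. Shares with both left out are not given here, so this separation cannot be read as a change of miR-26. How many other entries separated in that setting was not counted. Without titled ETBF replicate 1, the miR-26a-5p difference between the groups was -0.152 percentage points instead of 0.152.

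CPM values, counts relative to a library size scaled by the TMM method, take such differences in composition into account. On that scale miR-26a-5p stood at 26563, 24062 and 23589.7 CPM without ETBF and at 27783.5, 24943 and 29356 CPM with ETBF, by title. Titled untreated replicate 1 lay above titled ETBF replicate 2, so the groups overlapped. Group means were 24738 ± 1598 and 27361 ± 2237 CPM (SD, n = 3). The log2 fold change, titled ETBF over titled untreated, was 0.15 with a standard error (SE) of 0.11 and a 95% interval from -0.11 to 0.40 (edgeR quasi-likelihood test, adjusted p = 0.413).

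miR-26b-5p stood at 2019, 1798 and 1845 CPM without ETBF and at 1835, 1741 and 1728 CPM with ETBF, by title. Titled untreated replicate 2 lay below titled ETBF replicate 1, so these groups overlapped as well. Over all tested entries, 39% had CPM that did not overlap between the titled groups. Means were 1887 ± 116 and 1768 ± 58.4 CPM (SD, n = 3), a log2 fold change of -0.09 (SE 0.08, 95% interval -0.28 to 0.10, edgeR adjusted p = 0.489). As folds, the interval of miR-26a-5p reached up to 1.32 times the titled untreated level and that of miR-26b-5p down to 0.823 times. In pooled vesicle RNA, fewer vesicles that carry a miRNA and fewer copies per vesicle cannot be told apart.

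edgeR therefore called 0 of the 2 tested arms at an adjusted p under 0.05, where 14.4% of all 195 tested entries were called, 10.8% as higher and 3.59% as lower in the titled ETBF libraries. At an unadjusted p under 0.05 the count was also 0 of 2, against 33.8% of all tested entries, as it was for calls by DESeq2 and by limma-voom. The median log2 fold change over all tested entries was -0.03 and the median size of a change, whichever its sign, was 0.26. Ordered from the smallest size of change, miR-26b-5p came 27th and miR-26a-5p 54th of 195.

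**Figure D1:**
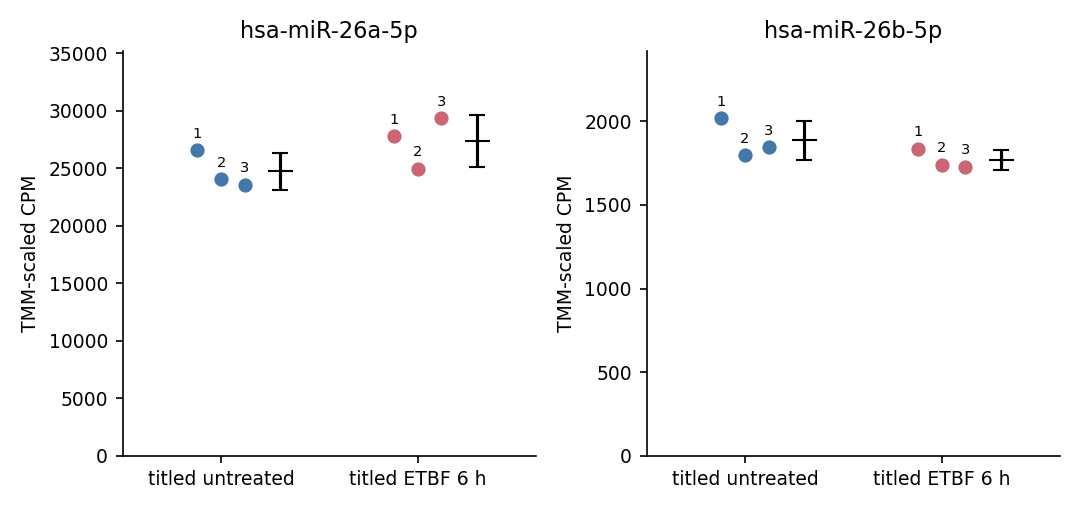
TMM-scaled CPM (vertical axis, starting at 0) of miR-26a-5p and miR-26b-5p in each library, numbered by titled replicate, with the mean and SD (n = 3) of each titled group as a bar. For both miRNAs the titled groups overlap, with means of 24738 and 27361 CPM for miR-26a-5p and 1887 and 1768 CPM for miR-26b-5p.

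The paralogues were also compared with each other inside each library, which needs no scaling between libraries. The ratio of miR-26a-5p to miR-26b-5p counts was 13.2 (95% interval from the exact binomial 11.9 to 14.6), 13.4 (12.4 to 14.5) and 12.8 (11.7 to 13.9) in the titled untreated libraries. It was 15.1 (13.9 to 16.5), 14.3 (12.9 to 15.9) and 17.0 (15.6 to 18.5) in the titled ETBF libraries. Every titled ETBF library had a higher ratio than every titled untreated library, though the counting intervals of titled ETBF replicates 1 and 2 overlapped those of all 3 titled untreated libraries and that of replicate 3 did not. The mean log2 ratio was 3.71 ± 0.0331 and 3.95 ± 0.125 (SD, n = 3), a difference of 0.24 or 1.18-fold (exact permutation test, two-sided, p = 0.1, the smallest this design allows, adjusted p = 0.4 over the 3 shares and the ratio). Among the other 194 tested entries, 37.1% had a ratio to miR-26b-5p that did not overlap between the titled groups, and 25.3% were higher in all titled ETBF libraries. The median size of the difference in that log2 ratio was 0.26, and 103 of 194 entries had a larger one than miR-26a-5p. A gap of that size between the groups was thus common among tested entries.

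**Figure D2:**
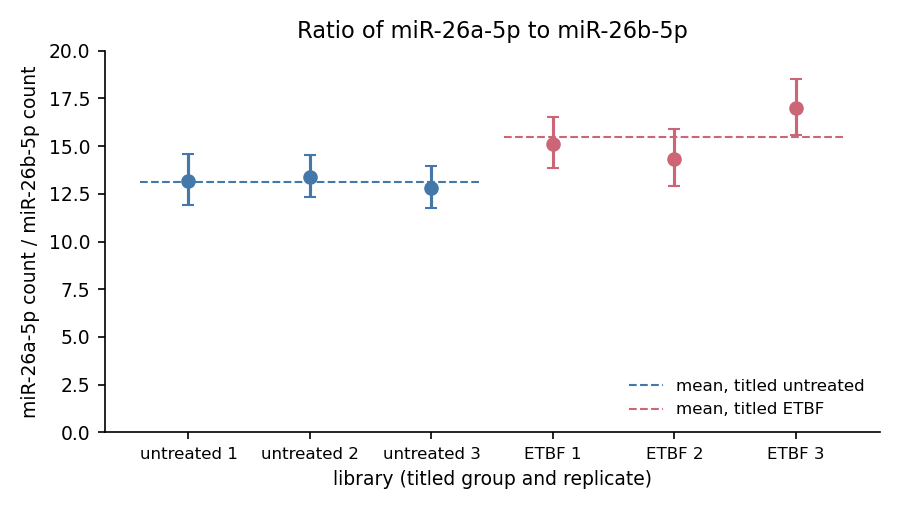
Ratio of miR-26a-5p to miR-26b-5p counts (vertical axis, starting at 0) in each of the 6 libraries, with 95% intervals that cover counting error only and the mean of each titled group as a dashed line. The 3 titled untreated libraries lie between 12.8 and 13.4 and the 3 titled ETBF libraries between 14.3 and 17.0.

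The size of the ratio depends on how reads with more than 1 genomic position were counted, which is not given in the sources used here. miR-199a-3p and miR-199b-3p have the same mature sequence, and the entry with more loci, miR-199a-3p, held 2 to 2.002 times the counts of the other in every library. If miR-26a-5p reads were likewise counted once at each of its 2 loci, the ratio to miR-26b-5p would be 6.55 ± 0.150 in the titled untreated and 7.74 ± 0.682 in the titled ETBF group (SD, n = 3) in place of 13.1 ± 0.300 and 15.5 ± 1.36. The difference between the groups is the same either way. On that reading the levels of miR-26a-5p fall as well. Its share would be 1.28% ± 0.0943 and 1.36% ± 0.277, that of the family 1.48% ± 0.110 and 1.54% ± 0.319, and its CPM 12369 ± 799 and 13680.3 ± 1118 (SD, n = 3), which is 13th of the tested entries if no other entry is altered. miR-26a-5p was the more abundant paralogue under both readings.

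miR-26a-5p also supplied nearly all counts that carry the UCAAGUA seed. miR-1297 and miR-4465 had 0 counts in every library, which allows a share of up to 0.000719% to 0.00150% depending on the library (3 counts of the total). Of the 47926 seed counts over the 6 libraries, 93.5% came from miR-26a-5p (95% exact binomial interval 93.2% to 93.7%), or 87.7% with its counts divided by 2. Its part ran from 92.7% to 93.0% in the titled untreated libraries and from 93.5% to 94.4% in the titled ETBF libraries. These percentages restate the ratio of miR-26a-5p to miR-26b-5p given above and are not a second result.

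The 3p arms, the passenger strands that are mostly discarded after the hairpin is cut, were at the limit of detection. miR-26a-1-3p had 0, 1 and 0 counts in the titled untreated and 0, 1 and 0 in the titled ETBF libraries. miR-26a-2-3p had 1, 0 and 0, then 1, 1 and 4. miR-26b-3p had 1, 3 and 1, then 3, 1 and 0. None of the 3 passed the filter, and with nearly all values at or under the floor of 3 counts (8.26 to 14.6 CPM depending on the library) no fold is given. Because the 3p arms alone tell MIR26A1 from MIR26A2, totals of 2 and 7 counts do not show which gene supplied miR-26a-5p.

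Over all libraries the 3p arms made up 9 of 44804 miR-26a counts, or 0.0201% (95% exact binomial interval 0.00919% to 0.0381%), and 9 of 3140 miR-26b counts, or 0.287% (0.131% to 0.543%). Among the 58 other miRNAs with both arms listed and at least 1000 counts over the 6 libraries, the less abundant arm had a median share of 0.486%. Of those 58, 7 had a smaller share than miR-26a and 25 a smaller share than miR-26b. The counting interval of miR-26a lay below the median of the others and that of miR-26b included it. With the 5p counts of miR-26a divided by its 2 loci its 3p share would be 0.0402%, above that of 11 of the 58.

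Stability over libraries was described by the coefficient of variation (CV), the SD over the mean of CPM in all 6 libraries. It was 8.66% for miR-26a-5p and 5.75% for miR-26b-5p, against a median of 19.4% over tested entries. That median includes entries with far fewer counts, where counting error alone is larger. From the lowest CV, miR-26b-5p came 10th and miR-26a-5p 27th of 195. Within groups the CV of miR-26a-5p was 6.46% in the titled untreated and 8.17% in the titled ETBF libraries, and that of miR-26b-5p was 6.17% and 3.31%. The CVs rest on TMM scaling: with library size alone they were 14.2% and 16.3%.

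miRNAs in common use as reference measures in exosome and serum studies gave a yardstick. The 10 listed ones had CVs from 3.62% to 24.0%, with a median of 8.59%. The 3 most abundant were miR-103a-3p, a regulator of metabolism and of Dicer, with a CV of 6.56%, miR-24-3p with 10.6% and miR-25-3p, of the miR-106b cluster, with 18.0%. Of the 10, miR-423-5p (log2 fold change 0.58, SE 0.13) and miR-320a (0.38, SE 0.09), which is made without Drosha, were higher in the titled ETBF libraries (edgeR adjusted p = 0.0167 and 0.0286) and 8 did not pass. That is 20% higher, where 10.8% of all tested entries were. Set beside that median, the CV of miR-26a-5p was close to it. That of miR-26b-5p was lower in all 6 libraries together, but reached 9.70% without titled untreated replicate 3 and 9.04% without titled ETBF replicate 1.

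**Figure D3:**
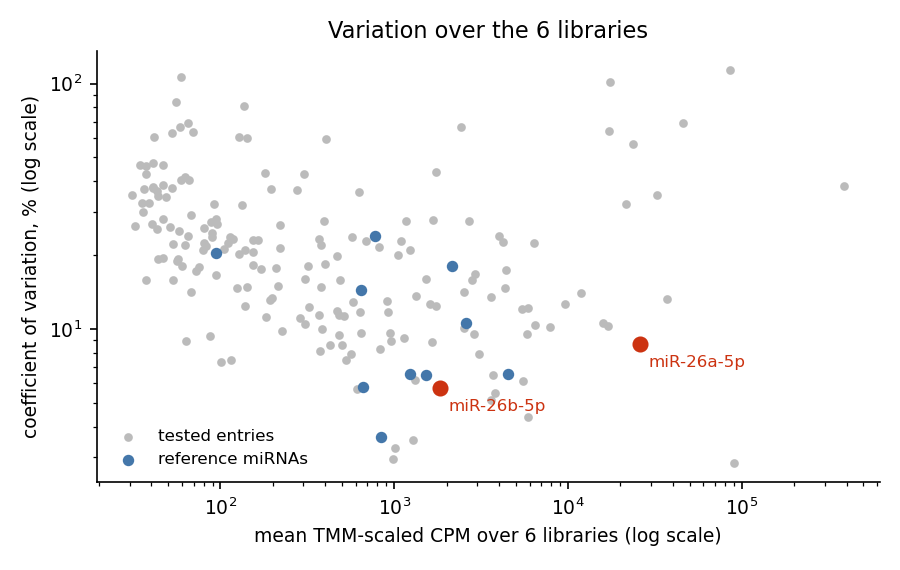
CV over the 6 libraries (vertical log axis, percent) against mean CPM (horizontal log axis) for the 195 tested entries, with the 10 reference miRNAs in blue and the miR-26 guide strands in red. miR-26b-5p at 5.75% and miR-26a-5p at 8.66% lie in the lower part of the cloud.

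In order of mean CPM, miR-26a-5p was 7th of the tested entries. Next above it were let-7i-5p (22999.7 ± 3198 and 41581 ± 7447 CPM in the titled untreated and titled ETBF libraries, SD, n = 3) and let-7f-5p (32959 ± 790 and 41341 ± 2625). Next below were miR-151a-3p (15396.5 ± 4085 and 31888.5 ± 15062.5) and let-7g-5p (15542 ± 1387 and 27560.3 ± 3249). The CVs of these 4 over 6 libraries were 35.3%, 13.2%, 56.6% and 32.3%, each above that of miR-26a-5p. Such CVs include the difference between the titled groups, and edgeR called let-7i-5p and let-7g-5p (adjusted p = 0.00885 and 0.00249). Within the titled ETBF group the CV of let-7f-5p was 6.35%, below the 8.17% of miR-26a-5p, and it was also the lower in the titled untreated group. The CVs of let-7i-5p, miR-151a-3p and let-7g-5p were above that of miR-26a-5p within each group.

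The other miRNAs listed here as known to repress EZH2, a list not meant to be complete, were less abundant than miR-26a-5p. Of 6 listed, 3 were tested, 0 were called by edgeR and 1 had an unadjusted p under 0.05 (14.4% and 33.8% over all tested entries), with 0 calls by DESeq2 and 0 by limma-voom. miR-101-3p, the best studied of them, stood at 3969 ± 114 and 4679 ± 786 CPM (SD, n = 3), with a log2 fold change of 0.24 (SE 0.12, edgeR adjusted p = 0.202). In single libraries miR-26a-5p had 5.27 to 6.90 times the counts of miR-101-3p, and miR-26b-5p 0.310 to 0.525 times. For miR-26a-5p this would be 2.63 to 3.45 times if its reads, and not those of miR-101-3p, had been counted at 2 loci. miR-98-5p, a let-7 relative, had 0.47 (SE 0.16, edgeR adjusted p = 0.0773) and miR-214-3p, a miRNA of muscle and mesenchyme, 0.08 (SE 0.24, adjusted p = 0.818). All 3 were positive, with a median of 0.24 against -0.03 over all tested entries. miR-138-5p and miR-124-3p had 7 and 3 counts in all and miR-137 had 0.

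The miR-26 genes belong to a set of miRNAs that MYC represses, and 15 of the 18 other listed members were tested. 1 was higher in the titled ETBF libraries, let-7g-5p (0.83, SE 0.12, edgeR adjusted p = 0.00249), 0 were lower and 14 did not pass. That is 6.67% higher, where 10.8% of all tested entries were higher. At an unadjusted p under 0.05 there were 5 of 15, near the 33.8% of all tested entries, and the median log2 fold change was -0.06. DESeq2 and limma-voom each called 2, let-7g-5p and let-7f-5p. The other 2 of its 3 most abundant members were let-7f-5p (0.33, SE 0.11) and let-7a-5p (0.25, SE 0.10), which restrain RAS genes, with edgeR adjusted p of 0.0746 and 0.111. miR-26a-5p and miR-26b-5p lay inside the spread of this set, which ran from -0.30 for miR-34a-5p, a p53 target, to 0.83 for let-7g-5p.

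**Figure D4:**
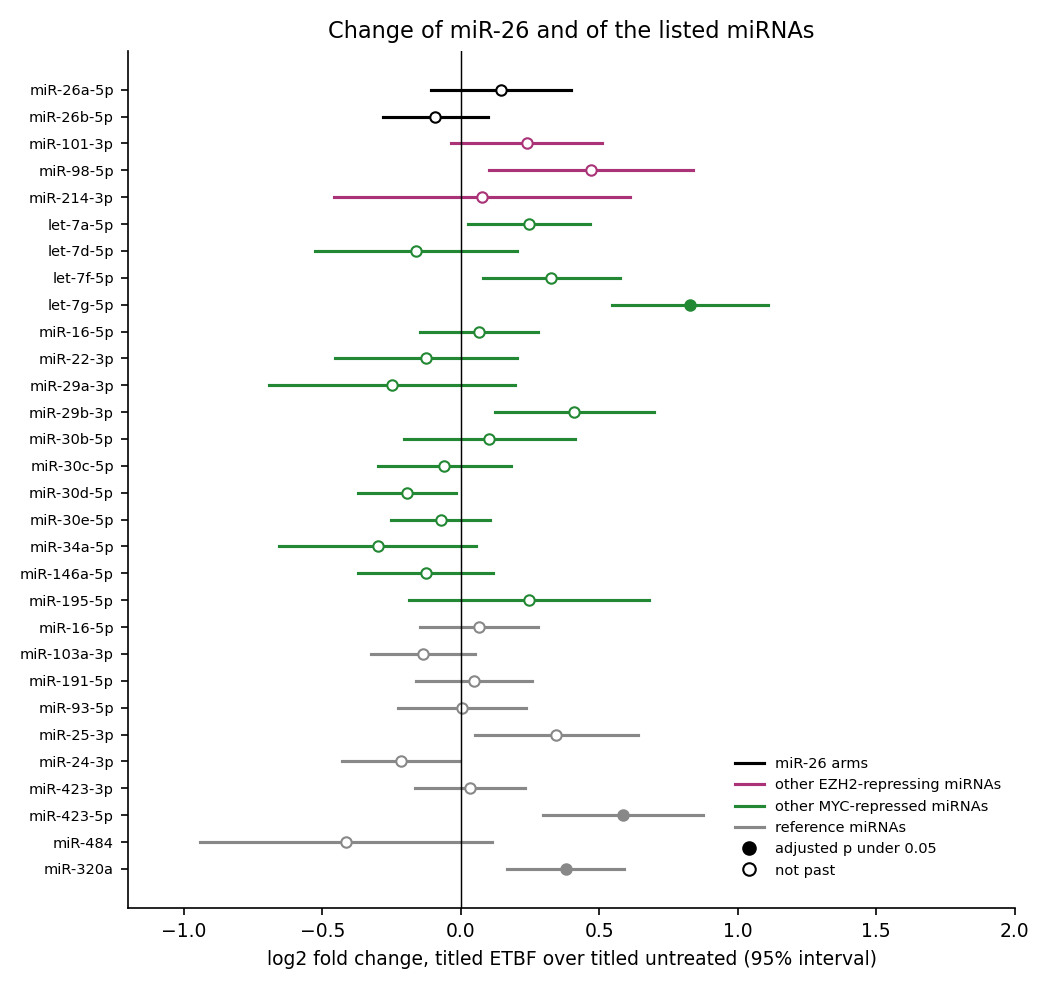
Log2 fold change with its 95% interval (edgeR, horizontal axis, titled ETBF over titled untreated) for the miR-26 guide strands, 3 other EZH2-repressing miRNAs, 15 other MYC-repressed miRNAs and 10 reference miRNAs, of which miR-16-5p stands in both of the last. Filled points, let-7g-5p, miR-423-5p and miR-320a, had an adjusted p under 0.05; the intervals of miR-26a-5p and miR-26b-5p include 0.

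On the TMM scale the paralogues did not follow each other over the libraries. As shares of a library, both were highest in titled ETBF replicate 1 and lowest in titled ETBF replicate 3. Pearson's r of log2 CPM between miR-26a-5p and miR-26b-5p was -0.0837 over 6 libraries, given as a description because all values share the libraries and their scaling. For miR-26a-5p the highest r were those of miR-340-5p (0.957), miR-16-5p (0.917), miR-27a-5p (0.887), miR-629-5p (0.871) and miR-29b-3p (0.840). For miR-26b-5p they were those of miR-126-5p (0.935), let-7c-5p (0.927), miR-199a-3p (0.888), miR-199b-3p (0.888) and miR-181a-5p (0.887), of which the miR-199 entries are the same sequence. No entry stood in both sets of 5, and miR-26b-5p came 115th of 194 for likeness to miR-26a-5p. The edgeR adjusted p of these 10 ran from 0.0601 to 0.629.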

How the data were processed

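The authors deposited raw counts per mature miRNA entry, 1 table for each library, from exosomal RNA taken up in Trizol with 100 ng per library, per the labels' protocols. Trimmomatic, FastQC, featureCounts and build GRCh37.p5 are named in the submitters' processing notes. The sources used here do not give their versions, the aligner, the miRNA annotation or how reads with several positions were treated. The kit named in the labels is Illumina TruSeq RNA, with no account of how small RNAs were selected. RefSeq coordinates on GRCh38.p14 were used only to place the hairpins.

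The whole table was fitted with edgeR 4.0.16 (filterByExpr with a minimum count of 10, TMM factors 0.776 to 1.19, quasi-likelihood test, Benjamini-Hochberg over 195 entries, threshold 0.05). SE was taken as the size of the log2 change divided by √F. Shares and the ratio were compared by exact permutation of the libraries. log2 CPM for likeness used a pseudocount of 1. Replicates of a group differed beyond sampling noise (chi-square over degrees of freedom 10.04 to 104).

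Members and lists were chosen with earlier results of these data known. Named entries were every miR-26 arm, the seed relatives, in each list the 3 most abundant and every called entry, the 5 most alike each guide strand, and the 2 next above and below miR-26a-5p in CPM. miR-98-5p, miR-214-3p, miR-138-5p, miR-124-3p, miR-137 and miR-34a-5p are named as list members or extremes, and miR-148a-3p for its share. On simulated counts, 87.5% of 56 entries changed 2-fold between the titled groups were called among 210 tested, and 4.39% of calls were false. Every simulated entry had the same spread setting, and changes were 2-fold or 4-fold at entries drawn at random. These figures therefore do not carry over to smaller changes or to the composition shifts of these libraries. Software was R 4.3.3, limma 3.58.1, DESeq2 1.42.0 and scipy 1.17.1.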

Additional observations from a re-analysis of the deposited data

How the results depend on the processing

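miR-26a-5p kept a positive and miR-26b-5p a negative log2 fold change in each of 17 alternatives, from 0.05 to 0.24 and from -0.17 to -0.02. Neither passed in any refit by edgeR, DESeq2 or limma-voom, with adjusted p from 0.185 to 0.856 and from 0.371 to 0.942. Scaling on the 10 reference miRNAs, among the 17 and chosen after the data were seen, gave 0.08 and -0.16, the latter with groups that did not overlap. In the main fit 7 of those 10 had a positive log2 fold change and 2 were called higher in the titled ETBF libraries. That bears on both values. This scaling was compared by exact permutation (p = 0.5 and 0.1), where 0.1 is the smallest possible, so it could not have passed. The difference of the log2 ratio of miR-26a-5p to miR-26b-5p was 0.168 to 0.291 without single replicates. The share of miR-26a-5p and of the family turned over when the structural RNA entries were left out (-0.527 and -0.597 percentage points), and that of miR-26b-5p when miR-148a-3p was left out (0.0134), which raised the differences of the other 2 to 0.873 and 0.888 with groups that no longer overlapped. Without single replicates the 3 shares ran from -0.152 to 0.360, from -0.191 to 0.363 and from -0.0395 to 0.00241 percentage points, turning over without titled ETBF replicate 1 for miR-26a-5p and the family and without titled ETBF replicate 3 for miR-26b-5p. The CVs with library size only were 14.2% and 16.3%, and 6.37% to 10.1% and 4.65% to 9.70% without single replicates. Where entries were left out, the miR-26 counts stayed the same and only the totals behind the shares changed. The structural RNA entries were still in the totals without miR-148a-3p. The cause of the other moves was not tested. How many other entries had groups that did not overlap on the reference scale or without miR-148a-3p was not counted. The 28 calls over all entries became 51 with no filter and 17 to 59 without single replicates: 59 when titled ETBF replicate 1 was left out, and 17 when titled ETBF replicate 3 or titled untreated replicate 3 was. The replicate block gave 38 calls, with 0.14 for miR-26a-5p and -0.09 for miR-26b-5p. Same-numbered libraries had correlations of deviations of 0.146, 0.0688 and -0.0112, and not every library was closest to its own number. With 3 libraries per group and values this small, whether the titles' numbers pair them cannot be told. The 3p arms could not be tested, since too few counts were left for depth to show a change.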
